A study of Sus scrofa with 6 samples.

Results

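The AMP-activated protein kinase (AMPK) is assembled from 1 alpha, 1 beta and 1 gamma subunit, and in pigs as in other mammals each kind is encoded by more than one gene. The members described here were chosen by gene name, with earlier results of these data known: PRKAA1 and PRKAA2 (alpha), PRKAB1 and PRKAB2 (beta), and PRKAG1, PRKAG2 and PRKAG3 (gamma). Of these 7 genes, 6 could be matched to a row among the 17627 genes of the table, and all 6 passed the filter on low values. PRKAA2 was not matched to a row and is not analysed here, so the alpha subunits are represented by PRKAA1 alone.

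RNA-seq libraries were made from longissimus dorsi, the back muscle sold as loin. The 6 libraries comprised 3 of the Wannanhua breed, which is native to China, and 3 of the Yorkshire breed, which is farmed widely for lean meat, with no treatment named for either. The sample labels give an age of 5 months for every pig, whereas the design text speaks of piglets. The labels do not say that the libraries of a breed came from separate animals, so p-values reflect only the spread among these libraries, part of which may be technical.

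AMPK senses the energy state of a cell. The alpha subunit carries the kinase, the beta subunit holds the complex together and can bind glycogen, and the gamma subunit binds AMP, ADP and ATP. When ATP falls the kinase is activated, and in muscle it favours glucose uptake and fatty acid oxidation over the storage of energy. PRKAG3 is known as the gamma gene of fast, glycolytic skeletal muscle, and it is the gene behind the RN trait of Hampshire pigs, in which muscle stores excess glycogen and yields acid meat.

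The PRKAG1 and PRKAG3 shares of the gamma transcripts separated the breeds without overlap, while the PRKAG2 share overlapped. Of all tested genes 29.9% kept the breeds apart in level, and no such figure was computed for shares. PRKAG1 was 2.28-fold higher by group means in Wannanhua muscle (limma adjusted p = 0.0458). It was the 1 member of 6 that passed the threshold, against 3.05% of all tested genes. The call lay close to the threshold and was lost when any library but Wannanhua 3 was left out. PRKAG3 averaged 13.6 FPKM in Wannanhua against 34.6 in Yorkshire but did not pass, and its level overlapped between the breeds. PRKAG1 supplied 63.0% ± 8.72 of the summed gamma FPKM in Wannanhua but 35.8% ± 10.6 in Yorkshire (SD, n = 3), while PRKAG3 supplied 17.0% ± 11.1 and 47.9% ± 7.34. The design, with 3 libraries a breed, cannot bring the permutation test of such a share below 0.10. After Benjamini-Hochberg adjustment over 11 shares, sums and ratios the smallest permutation p was 0.275. FPKM stands for fragments per kilobase of transcript per fixed number of mapped fragments, a value per length that allows levels of different genes to be set side by side.

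The deposited scaled counts of a library summed to between 16373268 and 19251335, and between 10726 and 11979 genes reached 1 FPKM. The members had scaled counts of 116.1 to 2323.9 in single libraries. Desmin (DES), the intermediate filament of muscle, stood at 4376 to 5716 FPKM in Wannanhua and at 2181 to 2934 in Yorkshire. Its level kept the breeds apart, at a limma adjusted p of 0.0706. The liver marker albumin (ALB) was at most 0.418 FPKM. Wannanhua 3 stood apart from the other Wannanhua libraries in its fibre type markers, as described beside the gamma subunits. In the test across all genes, 360 of 11791 genes, or 3.05%, passed a Benjamini-Hochberg adjusted p of 0.05, which is the threshold used throughout. Of all tested genes 1.76% were called higher in Wannanhua and 1.29% lower. Among 6 skeletal muscle markers tested 1 was called, MYBPC1, the slow type of myosin-binding protein C, higher in Wannanhua (limma adjusted p = 0.0295). That call was lost without Wannanhua 1, Wannanhua 2, Yorkshire 2 or Yorkshire 3, and without the filter on low values. The median log2 fold change of all tested genes was 0.12, and 0.00 after quantile normalization, which called 138 higher and 200 lower genes against 208 and 152 as deposited. Fold changes are given as Wannanhua minus Yorkshire, on a log2(FPKM + 1) scale, where the added 1 shrinks the change of weakly expressed genes. In whole tissue a lower number of cells of a type and less RNA per cell cannot be told apart.

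**Figure D1:**
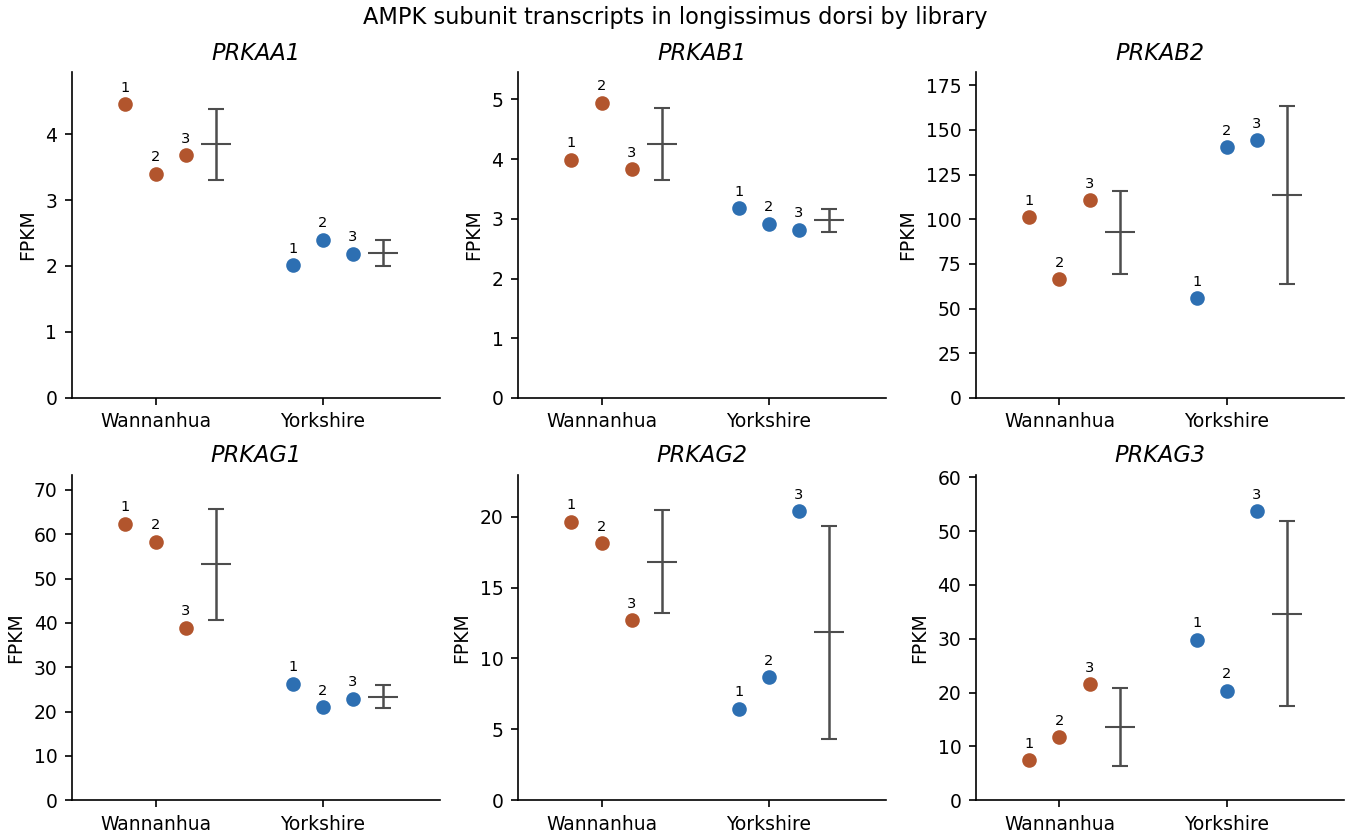
FPKM (vertical axis, linear, from 0) of each AMPK subunit gene in the 3 Wannanhua and 3 Yorkshire libraries. Points are libraries with their replicate number, and the bars beside them are the mean and SD. The Wannanhua libraries lie above all Yorkshire libraries for PRKAA1, PRKAB1 and PRKAG1, and the breeds overlap for PRKAB2, PRKAG2 and PRKAG3.

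The alpha subunit gene PRKAA1 (ENSSSCG00000024598), which encodes the more widely expressed of the catalytic subunits, had the lowest level of the 6 members in both breeds. Its level was 4.45, 3.40 and 3.68 FPKM in Wannanhua 1, 2 and 3, against 2.01, 2.40 and 2.18 FPKM in Yorkshire 1, 2 and 3. Every Wannanhua library lay above every Yorkshire library, with means of 3.84 ± 0.544 and 2.20 ± 0.193 FPKM (SD, n = 3). The log2 fold change of PRKAA1 was 0.59 ± 0.17 (SE), which did not pass (limma adjusted p = 0.104, unadjusted p = 0.00924). Its adjusted p ran from 0.103 to 0.287 over 14 alternatives. The scaled count behind 1 FPKM of PRKAA1 was 53.7 in Wannanhua 1 and 62.7 to 69.4 in the other libraries, so the deposited FPKM and scaled counts of this gene do not keep a fixed ratio. On scaled counts its log2 fold change was 0.64. PRKAA2 was not matched to a row, so the total level of the alpha subunit transcripts is not known here.

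Of the beta subunit genes, PRKAB2 was by far the more abundant. PRKAB2 (ENSSSCG00000006703), the beta gene typical of skeletal muscle, had the highest level of the 6 members in each breed. Its level was 101.1, 66.4 and 110.5 FPKM in Wannanhua 1, 2 and 3, and 55.9, 140.4 and 144.1 FPKM in Yorkshire 1, 2 and 3. Yorkshire 1 was the lowest of all 6 libraries, while the other Yorkshire libraries were the highest, so the breeds overlapped. The log2 fold change of PRKAB2 was -0.20, with a 95% interval from -1.12 to 0.72 (limma adjusted p = 0.799). It was -0.65 without Yorkshire 1 and near 0, at 0.02, 0.01 and 0.03, without Wannanhua 2, Yorkshire 2 or Yorkshire 3, so its direction rests on single libraries.

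PRKAB1 (ENSSSCG00000009840), the beta gene expressed in most tissues, measured 3.99, 4.94 and 3.83 FPKM in Wannanhua 1, 2 and 3, against 3.18, 2.92 and 2.82 FPKM in Yorkshire 1, 2 and 3. The breeds did not overlap, yet the difference was small, at a log2 fold change of 0.40 ± 0.17 (SE) that did not pass (limma adjusted p = 0.220). After quantile normalization it was 0.25. PRKAB1 supplied between 1.92% and 6.93% of the summed beta FPKM in single libraries. Its share averaged 4.69% ± 1.95 in Wannanhua and 3.11% ± 1.97 in Yorkshire (SD, n = 3), a difference within the spread of the libraries (exact two-sided permutation p = 0.50). The summed beta level was 96.9 ± 22.6 FPKM in Wannanhua against 116.4 ± 49.7 in Yorkshire, and did not differ beyond the spread (exact two-sided permutation p = 0.60).

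Among the gamma subunit genes, PRKAG1 (ENSSSCG00000000185), the gamma gene expressed in most tissues, measured 62.4, 58.3 and 38.9 FPKM in Wannanhua 1, 2 and 3. The Yorkshire libraries 1, 2 and 3 gave 26.2, 21.0 and 22.9 FPKM. The breeds did not overlap, and the lowest of the Wannanhua libraries was Wannanhua 3. The means were 53.2 ± 12.6 and 23.4 ± 2.65 FPKM (SD, n = 3), with a log2 fold change of 1.13 ± 0.22 (SE; limma adjusted p = 0.0458). Relative to the median of all tested genes the difference was 1.01. By its p PRKAG1 ranked 293 among the 11791 genes tested.

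The call of PRKAG1 lay close to the threshold. Its direction was the same in all 15 alternatives, and it passed in 7 of them, with the highest log2 fold change, 1.34, without Wannanhua 3. It was lost without Wannanhua 1 (adjusted p = 0.157), Wannanhua 2 (0.168), Yorkshire 1 (0.0676), Yorkshire 2 (0.123) or Yorkshire 3 (0.164), and held without Wannanhua 3 (0.0169). It was also lost after quantile normalization (adjusted p = 0.0614) and without the filter on low values (0.0735).

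PRKAG3 (ENSSSCG00000016200), the gamma gene of fast skeletal muscle, measured 7.38, 11.7 and 21.5 FPKM in Wannanhua 1, 2 and 3. The Yorkshire libraries 1, 2 and 3 gave 29.9, 20.3 and 53.7 FPKM. Wannanhua 3 was slightly above Yorkshire 2, which was the one overlap, and Yorkshire 3 was the highest of all libraries. The log2 fold change was -1.30 ± 0.44 (SE), with a 95% interval from -2.34 to -0.27, and did not pass (limma adjusted p = 0.149, unadjusted p = 0.0204). It stayed negative in all 15 alternatives, from -1.68 to -0.94, and its adjusted p ran from 0.0666 to 0.350. Without Wannanhua 3 the log2 fold change was -1.68 and the adjusted p 0.0785.

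PRKAG2 (ENSSSCG00000016432), a gamma gene known for heart disease when mutated, measured 19.6, 18.1 and 12.7 FPKM in Wannanhua 1, 2 and 3. Its level in Yorkshire 1, 2 and 3 was 6.46, 8.66 and 20.4 FPKM. Yorkshire 3 was above all Wannanhua libraries and the other Yorkshire libraries were below them. The log2 fold change of PRKAG2 was 0.60 ± 0.39 (SE; limma adjusted p = 0.402). Leaving out single libraries gave log2 fold changes from 0.29, without Yorkshire 1, to 1.05, without Yorkshire 3, where it still did not pass (adjusted p = 0.170).

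**Figure D2:**
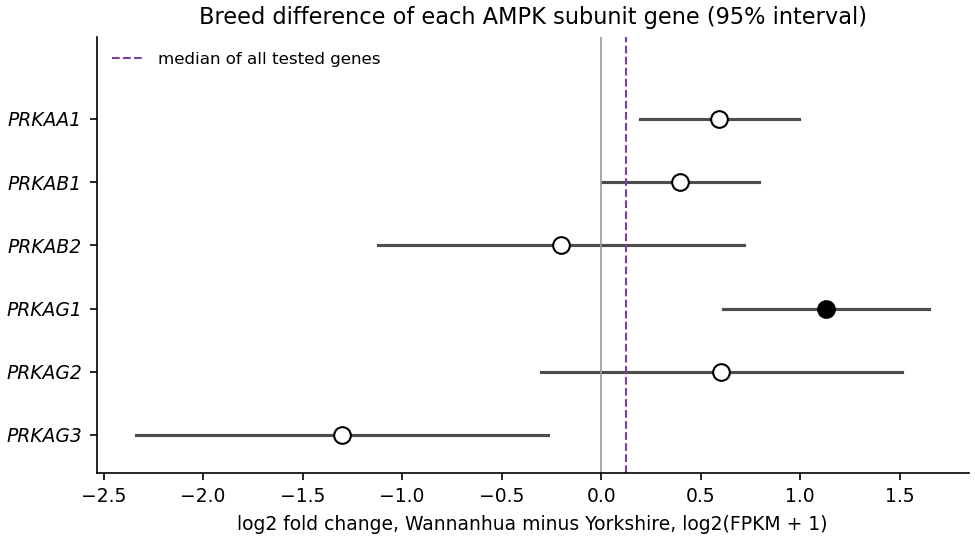
Log2 fold change (horizontal axis, Wannanhua minus Yorkshire, in log2(FPKM + 1) units) of each AMPK subunit gene with its 95% interval from limma. The filled point passed the adjusted threshold, open points did not, and the dashed line marks the median of all tested genes at 0.12. PRKAG1 lies highest at 1.13 and PRKAG3 lowest at -1.30.

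Of the 6 members 4 had positive and 2 negative log2 fold changes, with a median of 0.50 against 0.12 over all tested genes, of which 62.6% were positive. The 1 member called compares with 3.05% of all tested genes. An unadjusted p under 0.05 was found for 4 members, PRKAA1, PRKAB1, PRKAG1 and PRKAG3, and for 22.1% of all tested genes. The libraries of the breeds did not overlap for 3 members, PRKAA1, PRKAB1 and PRKAG1, all higher in Wannanhua. Of all tested genes 20.3% had that pattern, 9.63% the opposite one and 29.9% either.

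The order of the levels differed between the breeds at the gamma genes. In Wannanhua it ran PRKAB2, PRKAG1, PRKAG2, PRKAG3, PRKAB1, PRKAA1, and in Yorkshire PRKAB2, PRKAG3, PRKAG1, PRKAG2, PRKAB1, PRKAA1. In Wannanhua the neighbours PRKAG2 and PRKAG3 overlapped in FPKM, as did PRKAB1 and PRKAA1. In Yorkshire PRKAG3 and PRKAG1 overlapped, with PRKAG3 the higher in 2 of 3 libraries. All other neighbours had ranges that did not overlap within a breed. Among the tested genes of Wannanhua, PRKAB2 stood at percentile 93.1 and PRKAA1 at 32.5 by mean FPKM. In Yorkshire these percentiles were 94.5 and 20.7, while that of PRKAG3 was 84.6 against 67.4 in Wannanhua.

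PRKAG3 varied widely among the libraries of both breeds. Its coefficient of variation was 53.5% in Wannanhua and 49.7% in Yorkshire. PRKAG2 and PRKAB2 varied more among the Yorkshire libraries, at 63.3% and 44.0%, than among the Wannanhua libraries, at 21.7% and 25.1%. PRKAA1 and PRKAB1 varied least, at 8.78% and 6.29% in Yorkshire and 14.2% each in Wannanhua.

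Because 1 gamma subunit enters each complex, the gamma transcripts were also expressed as shares of their sum. PRKAG1 made up 69.8%, 66.2% and 53.2% of it in Wannanhua 1, 2 and 3, against 41.9%, 42.0% and 23.6% in Yorkshire 1, 2 and 3. PRKAG3 made up 8.26%, 13.3% and 29.4% in Wannanhua and 47.7%, 40.7% and 55.4% in Yorkshire. Both shares separated the breeds without overlap, although the PRKAG3 level itself did not.

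The PRKAG1 share was 27.2 percentage points higher in Wannanhua, and the difference of the PRKAG3 share was -30.9 points. Each gave an exact two-sided permutation p of 0.10, the smallest that 3 libraries against 3 can give, so this test cannot reach 0.05 for either share. Leaving out single libraries gave 21.1 to 32.1 points for PRKAG1, and differences from -37.1 to -26.6 points for PRKAG3. The PRKAG2 share, 20.0% ± 2.36 in Wannanhua and 16.2% ± 5.43 in Yorkshire, did not differ beyond the spread (exact two-sided permutation p = 0.40).

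The summed gamma level did not separate the breeds. It was 89.4, 88.2 and 73.2 FPKM in Wannanhua 1, 2 and 3, and 62.5, 49.9 and 97.0 FPKM in Yorkshire 1, 2 and 3. Yorkshire 3 was the highest of all, so the breeds overlapped, and the summed level did not differ beyond the spread (exact two-sided permutation p = 0.40). The ratio of PRKAG3 to PRKAG1, chosen for mention after the values were seen, was 0.118, 0.201 and 0.554 in Wannanhua 1, 2 and 3. In Yorkshire 1, 2 and 3 it was 1.14, 0.969 and 2.34, which is 5.81-fold higher by geometric means (exact two-sided permutation p = 0.10, the smallest possible). The ratio of PRKAG2 to PRKAG1 lay between 0.311 and 0.327 in Wannanhua but between 0.246 and 0.889 in Yorkshire. Over the 11 shares, sums and ratios tested this way, the smallest Benjamini-Hochberg adjusted permutation p was 0.275. The 11 are not separate tests, since the shares, sums and ratios of a family re-express the same levels.

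**Figure D3:**
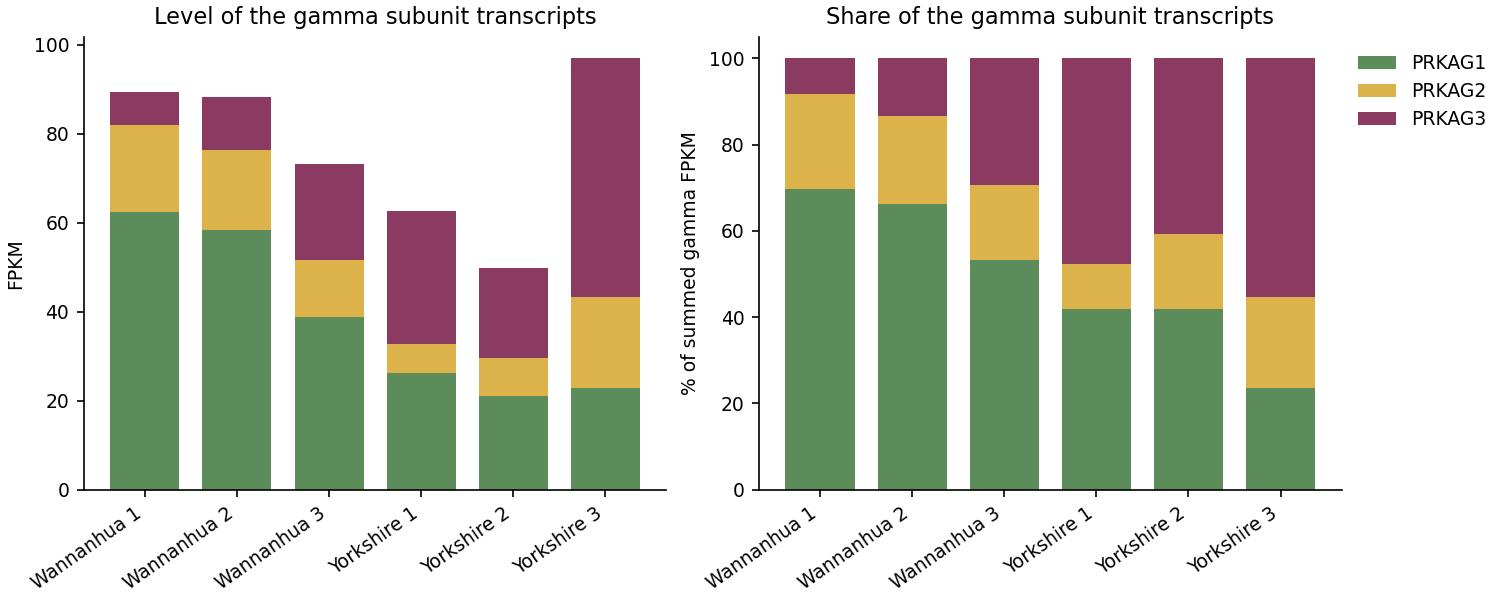
Stacked bars of PRKAG1, PRKAG2 and PRKAG3 in each library, on the left in FPKM and on the right as a percentage of their summed FPKM. PRKAG1 takes 53.2% to 69.8% of the sum in the Wannanhua libraries and 23.6% to 42.0% in the Yorkshire libraries. PRKAG3 takes 8.26% to 29.4% and 40.7% to 55.4%.

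The fibre type markers of each library are given beside the gamma isoforms. Across all tested genes, 1.76% were called higher in Wannanhua and 1.29% lower. Of 6 slow fibre markers tested, 2 were called higher in Wannanhua, CSRP3 and ANKRD2, and of 7 fast fibre markers 1 was called lower, CASQ1, the calcium store of fast fibres (limma, adjusted threshold). Without Wannanhua 3 these counts were 3 and 4, where 269 of all 11540 tested genes were called higher and 235 lower. Without Wannanhua 1, Wannanhua 2 or Yorkshire 3 none of either list passed, where 36, 19 and 11 of all tested genes did. CASQ1 was also lost without Yorkshire 1 or Yorkshire 2, after quantile normalization and without the filter on low values. CSRP3 was also lost without Yorkshire 2 and without the filter on low values. Of 10 slow fibre markers 6 had a row, and their summed level ranged from 11088 to 43752 FPKM in Wannanhua and from 5681 to 17364 in Yorkshire. Of 11 fast fibre markers 7 had a row, with sums of 14695 to 40366 FPKM in Wannanhua and 57803 to 59068 in Yorkshire. No matched marker was at 0 in every library, and the lowest single value was parvalbumin (PVALB), a calcium buffer of fast fibres, at 0.106 FPKM in Wannanhua 1. The fast list minus the slow list, as a difference of mean log2(FPKM + 1), was -2.40 and -2.34 in Wannanhua 1 and 2, 0.82 in Wannanhua 3, and 1.29, 2.86 and 2.29 in Yorkshire 1, 2 and 3. Of the slow list only CSRP3 and ANKRD2 kept the breeds apart in level. TNNI1, TNNT1, TNNC1 and MYL3 overlapped, at 1825, 2415, 4240 and 1628 FPKM in Wannanhua 3. In Yorkshire 1 they were higher, at 2540, 3950, 7577 and 2946 FPKM. The difference was not computed without CSRP3 and ANKRD2.

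Wannanhua 3, the Wannanhua library with the highest PRKAG3 share and the lowest PRKAG1 share, was also the one nearest to Yorkshire in its fibre markers. Among the Yorkshire libraries the order was not shared, since Yorkshire 2 had the highest fast-minus-slow difference and the lowest PRKAG3 share. The part of fibre composition in the gamma isoform difference was not tested. Of the markers of other cells that were tested, 0 of 5 adipocyte, 0 of 6 endothelial, 0 of 6 macrophage and 0 of 6 fibroblast genes passed in limma, although 1, 0, 0 and 2 of them had an unadjusted p under 0.05. None passed among 4 smooth muscle, 3 satellite cell, 1 blood, 1 cardiac and 1 liver gene either, of which 0, 2, 0, 0 and 1 had an unadjusted limma p under 0.05. Of all tested genes 22.1% had such a p and 3.05% passed. The adipocyte gene was LIPE, higher in Wannanhua (log2 fold change 0.86), and all 5 adipocyte genes were positive. The fibroblast genes were COL1A2 (-1.43) and COL3A1 (-1.05), and 5 of 6 fibroblast genes were negative. Both collagen genes passed without Yorkshire 1 (limma adjusted p = 0.0411 to 0.0461). The satellite cell genes were MYF5, higher in Wannanhua (log2 fold change 0.72), and CDH15, lower (-0.70), and the liver gene was APOA1 (-0.73). The blood gene HBB, a globin, stood at 141.0, 116.3 and 42.9 FPKM in Wannanhua 1, 2 and 3 and between 15.5 and 93.1 in Yorkshire, so that it too was lowest in Wannanhua 3 among the Wannanhua libraries. Its part in the PRKAG1 difference was not tested.

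**Figure D4:**
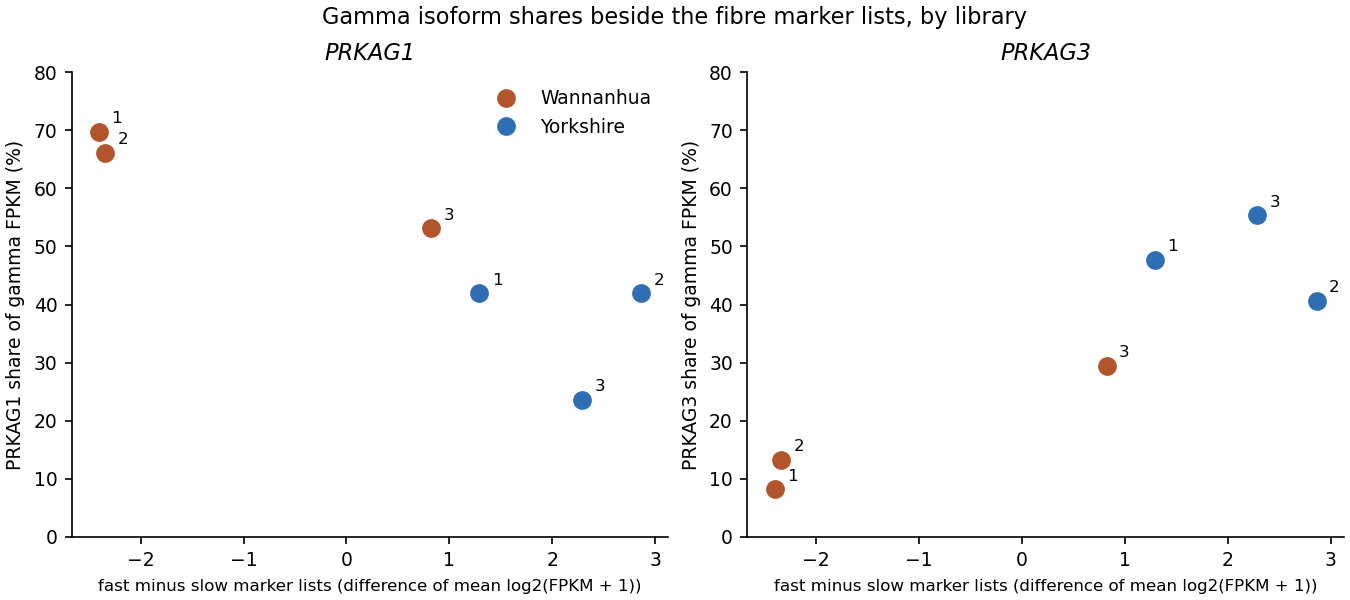
Share of the summed gamma FPKM (vertical axis, %) taken by PRKAG1 on the left and PRKAG3 on the right, against the difference between the mean log2(FPKM + 1) of the fast and slow fibre marker lists (horizontal axis). Each point is a library with its replicate number. Wannanhua 3, at 0.82, lies next to Yorkshire 1, at 1.29, and apart from Wannanhua 1 and 2 near -2.4. The slow markers TNNI1, TNNT1, TNNC1 and MYL3 were lower in Wannanhua 3 than in Yorkshire 1, while CSRP3 and ANKRD2 were higher.

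The genes whose levels followed each member most closely over the 6 libraries are given as a description. The 6 points are 3 libraries of each breed and share each library's scaling. For PRKAG1 these were LACTB2, CPT1B and GEMIN4, with Pearson correlations of 0.997, 0.996 and 0.996. CPT1B, which admits fatty acids to mitochondria in muscle, stood at 153.8, 145.4 and 76.1 FPKM in Wannanhua 1, 2 and 3 and at 30.4, 23.8 and 26.2 in Yorkshire, so it shared the lower value of PRKAG1 in Wannanhua 3. For PRKAG3 they were PPP1R3D, HEXIM1 and UST (0.993, 0.989 and 0.987). PPP1R3D, a subunit that directs protein phosphatase to glycogen, measured 2.55, 4.25 and 6.10 FPKM in Wannanhua and 8.82, 6.86 and 13.0 in Yorkshire, with the same highest and lowest libraries as PRKAG3.

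For PRKAG2 the closest genes were NUBPL, RIT1 and CCNT2 (0.998, 0.971 and 0.971). NUBPL, an assembly factor of respiratory complex I, shared the high value in Yorkshire 3, at 3.56 FPKM against 0.886 and 1.31 in Yorkshire 1 and 2. For PRKAB2 they were TRPM7, LIMCH1 and PPP3CA (0.98 each), for PRKAA1 ANK3, FYTTD1 and NOC3L (0.99 each), and for PRKAB1 CUEDC1, NAA35 and TERF2 (0.99 each). Of 7242 genes with a symbol, 145 reached a correlation of 0.95 with PRKAG1, 102 with PRKAB1 and 89 with PRKAA1. Only 15 did so with PRKAB2, 11 with PRKAG3 and 8 with PRKAG2, the members whose breeds overlapped.

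Kinases and scaffolds that activate AMPK had 0 of 7 tested members past the threshold, against 3.05% of all tested genes. An unadjusted limma p under 0.05 was found for 3 of them, against 22.1% of all tested genes. Their median log2 fold change was 0.28. STK11, the kinase LKB1 that phosphorylates the alpha subunit, averaged 40.6 ± 7.51 FPKM in Wannanhua libraries and 53.9 ± 3.51 in Yorkshire libraries (SD, n = 3; limma adjusted p = 0.248). Its scaffold partner CAB39, the most abundant of the list, stood at 132.2 ± 13.8 and 93.9 ± 1.01 FPKM (limma adjusted p = 0.150). Both kept the breeds apart, in opposite directions.

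The calcium-dependent AMPK kinase CAMKK2 averaged 2.94 ± 0.720 and 2.03 ± 1.02 FPKM in Wannanhua and Yorkshire (limma adjusted p = 0.434). Its relative CAMKK1, chosen after seeing its values, measured 0.821, 0.764 and 1.97 FPKM in Wannanhua 1, 2 and 3 and 3.47, 5.97 and 3.69 in Yorkshire. The log2 fold change of CAMKK1 was -1.31 ± 0.28 (SE) and narrowly missed the threshold (limma adjusted p = 0.0533). It passed without Wannanhua 3 (adjusted p = 0.0270), after quantile normalization (0.0338) and on scaled counts (0.0480).

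Proteins that bind AMPK or set its activity had 0 of 7 tested members past the threshold, against 3.05% of all tested genes. An unadjusted limma p under 0.05 was found for 4 of them, against 22.1% of all tested genes. Their median was 0.54, with 6 of 7 positive, against 62.6% of all tested genes. PPP2CA, a catalytic subunit of protein phosphatase 2A and the most abundant of them, measured 158.9, 241.6 and 121.3 FPKM in Wannanhua 1, 2 and 3 and 63.5, 77.2 and 68.3 FPKM in Yorkshire 1, 2 and 3, without overlap. Its log2 fold change of 1.25 ± 0.27 (SE) just missed the threshold (limma adjusted p = 0.0543). PPP2CA passed without Wannanhua 3 (limma adjusted p = 0.0245), with a filter at 5 FPKM (0.0458) and on scaled counts (0.0467).

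Direct substrates of AMPK had 1 of 21 tested members past the threshold, higher in Wannanhua, against 3.05% of all tested genes. An unadjusted limma p under 0.05 was found for 4 of them, against 22.1% of all tested genes. Their median was 0.14, close to that of all tested genes. The member called was PFKFB2, which makes and degrades the fructose bisphosphate that stimulates glycolysis. Its level was 4.68, 5.17 and 3.61 FPKM in Wannanhua 1, 2 and 3, against 1.19, 0.975 and 1.68 FPKM in Yorkshire 1, 2 and 3. The log2 fold change was 1.27 ± 0.20 (SE), at a limma adjusted p of 0.0321. The breeds did not overlap, and the call was lost when any library but Wannanhua 3 was left out (adjusted p = 0.0585 to 0.127) and without the filter on low values (0.0553).

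GYS1, muscle glycogen synthase and the most abundant substrate gene, stood at 59.4, 66.2 and 59.3 FPKM in Wannanhua 1, 2 and 3 and at 99.3, 76.9 and 123.6 in Yorkshire. The breeds were apart, but the log2 fold change of -0.66 ± 0.21 (SE) did not pass (limma adjusted p = 0.129). The Rab regulators of glucose transport TBC1D1 and TBC1D4 did not pass either. TBC1D1 was at 16.8 FPKM in Wannanhua 2 and at 2.09 to 4.27 in the other libraries. TBC1D4 stood at 12.3 ± 2.04 and 13.4 ± 5.41 FPKM in Wannanhua and Yorkshire (SD, n = 3; limma adjusted p = 0.947).

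PPARGC1A, a coactivator of mitochondrial genes, measured 5.84, 6.82 and 5.09 FPKM in Wannanhua 1, 2 and 3. Its level was 1.26 and 2.57 FPKM in Yorkshire 1 and 2 and 26.6 in Yorkshire 3, the library in which PRKAG2 and PRKAG3 were also highest (limma adjusted p = 0.920). ACACB, the acetyl-CoA carboxylase of muscle mitochondria, was not matched to a row.

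Transport and oxidation genes known to respond to AMPK had a median of 0.94. An unadjusted limma p under 0.05 was found for 3 of 8 tested members, against 22.1% of all tested genes. Past the threshold were 2 of the 8, both higher in Wannanhua, against 3.05% of all tested genes. These were CPT1B (log2 fold change 2.12 ± 0.29 SE, limma adjusted p = 0.0235) and PDK4, which restrains pyruvate dehydrogenase (3.82 ± 0.76 SE, limma adjusted p = 0.0465). CPT1B was lost without Wannanhua 1, Wannanhua 2, Yorkshire 2 or Yorkshire 3 (adjusted p = 0.0748 to 0.112), and PDK4 without any library but Yorkshire 2 (adjusted p = 0.0765 to 0.158). PDK4 was also lost without the filter on low values (adjusted p = 0.0809) and at a pseudocount of 0.1 (0.0548). The glucose transporter SLC2A4 averaged 49.4 ± 15.1 FPKM in Wannanhua against 53.7 ± 6.49 in Yorkshire (SD, n = 3; limma adjusted p = 0.753). CYCS, cytochrome c and the most abundant of the list, stood at 613.3 ± 160.3 and 501.8 ± 208.3 FPKM (limma adjusted p = 0.609).

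Enzymes that set the balance of AMP, ADP and ATP had 3 of 7 tested members past the threshold, 2 higher and 1 lower in Wannanhua. The share over all tested genes was 3.05%. An unadjusted limma p under 0.05 was found for 5 of these enzymes, against 22.1% of all tested genes, and their median was -0.15. AMPD3, an AMP deaminase, was at 14.8, 44.9 and 29.0 FPKM in Wannanhua 1, 2 and 3 and at 1.11, 2.13 and 1.07 in Yorkshire (log2 fold change 3.54 ± 0.39 SE, limma adjusted p = 0.00950). It was lost without Yorkshire 3 (adjusted p = 0.0690). AMPD1, the AMP deaminase of skeletal muscle, chosen after seeing its values, went the other way at 224.3 ± 174.0 and 563.1 ± 130.1 FPKM (SD, n = 3) and did not pass (limma adjusted p = 0.133), although it did without Wannanhua 3.

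AK1, the cytosolic adenylate kinase that turns ADP into ATP and AMP, was lower in Wannanhua, at 341.7 ± 220.8 against 1557 ± 164.8 FPKM (limma adjusted p = 0.0381). AK3, an adenylate kinase of the mitochondrial matrix, was higher, at 46.2 ± 12.5 against 17.1 ± 1.91 FPKM (limma adjusted p = 0.0381). Both were lost when any library but Wannanhua 3 was left out, with adjusted p of 0.0728 to 0.143 for AK1 and 0.0684 to 0.140 for AK3, and without the filter on low values (0.0653 and 0.0645).

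Enzymes of glycogen, the store to which beta subunits bind, had 1 of 11 tested members past the threshold, against 3.05% of all tested genes. An unadjusted limma p under 0.05 was found for 5 of them, against 22.1% of all tested genes. The member called was GBE1, the branching enzyme, which was higher in Wannanhua (limma adjusted p = 0.0412). It was lost when any library but Wannanhua 3 was left out (adjusted p = 0.0772 to 0.145) and without the filter on low values (0.0702). The median of the list was -0.66, with 9 of 11 members negative. Without Wannanhua 3, 504 of 11540 tested genes passed, against 360 of 11791 with all libraries. In that setting the glycogen list had 5 members past the threshold, GBE1 and 4 that were lower in Wannanhua. These 4 were PYGM and the phosphorylase kinase subunits PHKA1, PHKB and PHKG1 (limma adjusted p = 0.00523 to 0.0320). PYGM, muscle glycogen phosphorylase and the most abundant of them, stood at 1612, 1692 and 4158 FPKM in Wannanhua 1, 2 and 3 and at 7148, 7281 and 6602 in Yorkshire. The breeds did not overlap, and PYGM missed the threshold (log2 fold change -1.64 ± 0.38 SE, limma adjusted p = 0.0666) but passed without Wannanhua 3 (adjusted p = 0.00523).

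Kinases related to AMPK by their catalytic domain had 0 of 6 tested members past the threshold, against 3.05% of all tested genes. None had an unadjusted limma p under 0.05, against 22.1% of all tested genes, and their median was 0.09. MARK3, the most abundant of them, averaged 26.0 ± 2.25 FPKM in Wannanhua against 32.3 ± 4.09 in Yorkshire (SD, n = 3; limma adjusted p = 0.349).

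**Figure D5:**
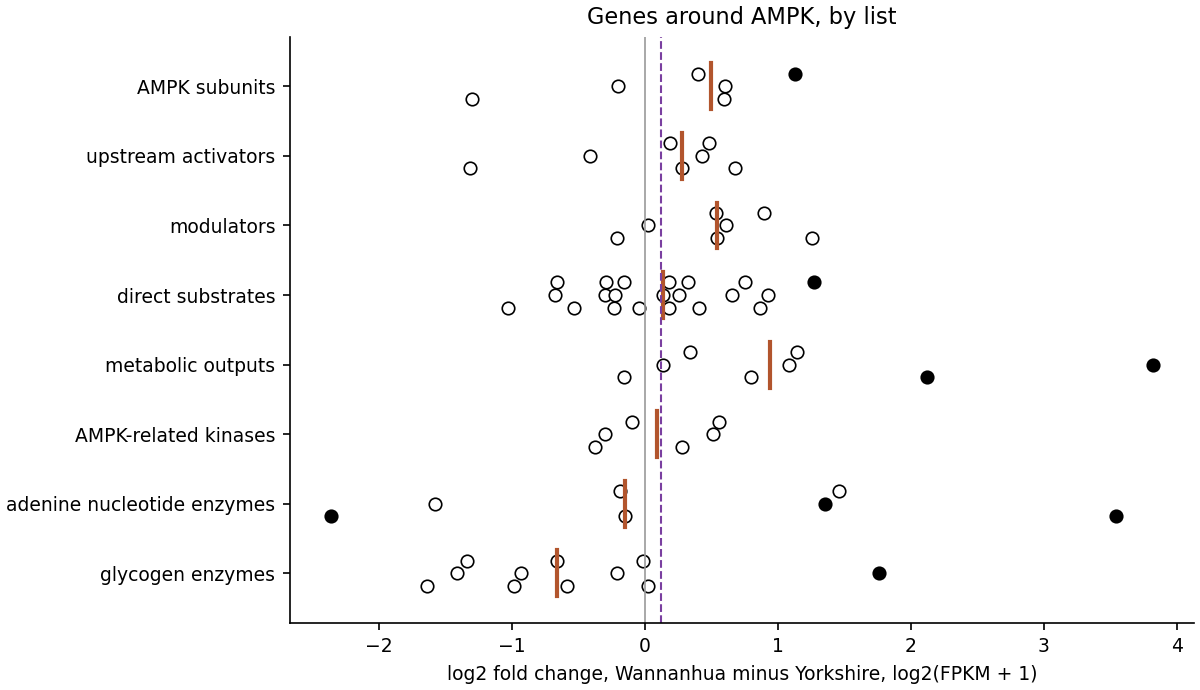
Log2 fold change (horizontal axis, Wannanhua minus Yorkshire, in log2(FPKM + 1) units) of each tested gene of the AMPK subunits and 7 related lists. Filled points passed the adjusted threshold, short vertical bars are list medians, and the dashed line is the median of all tested genes at 0.12. The medians run from -0.66 for glycogen enzymes to 0.94 for metabolic outputs, the transport and oxidation genes.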

How the data were processed

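The authors deposited 1 table with, for each gene and library, an FPKM value and a count, per the file headers. The counts are called scaled counts here. The deposited scaled counts are a signal, not whole numbers: gene counts divided by a factor per library. Because whole reads were not recovered for every library, no count test was run. Named in the submitters' processing notes are TopHat2 2.0.6, CASAVA 1.7 and build Sscrofa 10.2, while the read counter and annotation are not given in the sources used. The library kit does not mark strand, per the labels' protocols. A table of Ensembl identifiers matched 10384 of 17627 identifiers (58.9%) to symbols.

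Breeds were compared with limma 3.58.1 in R 4.3.3 (trend and robust settings, breed as the only term) on log2(FPKM + 1), over the 11791 genes that had 1 FPKM or more in at least 3 libraries. Left out were 7 genes listed at 0 in a library despite a scaled count of 10000 or more in another. P-values were adjusted over all tested genes. Shares and sums used exact permutation tests in SciPy 1.17.1. The fit was tested on simulated data. No pair of libraries of a breed agreed within sampling noise.

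The members and lists were chosen with earlier results of these data known. Named genes were all members, from each list up to 4 called genes and the most abundant gene, 8 well-known AMPK kinases and targets, and for each member the 3 genes with the highest Pearson correlation. Alternatives were other pseudocounts, filters and normalizations, a replicate block and each library left out, and, added after seeing the data, the scaled counts in place of FPKM.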

Additional observations from a re-analysis of the deposited data

How the results depend on the processing

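Of the 15 alternatives, the number of genes past the threshold moved from 360 to 69 without a filter and to 205 with the replicate block. With single libraries left out it ran from 11, without Yorkshire 3, to 504, without Wannanhua 3. The 1 AMPK subunit gene called, PRKAG1, became 0 without a filter, after quantile normalization and with the replicate block, and 0 to 1 with single libraries left out. The replicate numbers are not stated to pair the libraries: deviations of same-numbered libraries correlated at 0.10, -0.01 and 0.11 across genes, and not every library correlated best with its own number. With the block PRKAG1 had an adjusted p of 0.0625 and PRKAG3 of 0.0666. Of the other list genes called, PFKFB2 (0.0562), PDK4 (0.0616) and the fast fibre marker CASQ1 lost their call with the block.

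Directions turned for PRKAB2 (0.020, 0.012 and 0.030 without Wannanhua 2, Yorkshire 2 and Yorkshire 3) and with it for the summed beta level, from -0.18 to 0.028, 0.029 and 0.047. With single libraries left out, the log2 fold change ran from -0.65 to 0.030 for PRKAB2, from -0.37 to 0.21 for TBC1D4, from -0.53 to 1.28 for PPARGC1A and from -0.36 to 0.10 for SLC2A4. The summed beta level ran from -0.61 to 0.047 and the summed gamma level from 0.096 to 0.58. None of the gene values passed in limma, and the summed levels with a library left out were not tested. On scaled counts, which are not per length, the beta share difference was 3.55 points for PRKAB1 and -3.55 for PRKAB2, against 1.58 and -1.58. PRKAA1 and PRKAB1 had no value under the 5 FPKM filter. The planned count tests were not run, since whole reads were not recovered for every library.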
